A study of Mus musculus with 4 samples.

Results

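The microglia genes C1qa, C1qb, C1qc, Cx3cr1, Csf1r, Trem2, P2ry12, Tmem119 and Aif1 were examined for binding of CTCF in mouse cerebral cortex. They are 9 of the 21938 protein-coding genes annotated on chromosomes 1 to 19, X and Y, were chosen by name as markers of microglia, and lie at 7 separate loci, because the C1q genes are neighbours. The assay was ChIP-seq, in which DNA bound by a protein is pulled down with an antibody and sequenced, on tissue of the left cerebral cortex. The mice were adult B6CASTF1/J females aged 2 months, a hybrid of a C57BL/6J and a CAST/EiJ parent by strain name. Pool I (biological replicate 1) and pool J (biological replicate 2) each combined 4 cortex biosamples and were sequenced as 2 technical replicate libraries. All 4 libraries are untreated tissue with the same target, so there is no control condition. The peak lists merge both libraries of a pool, so each pool gives 1 value per peak, no test between pools was possible, and the read depth is unknown. Peaks describe where CTCF was bound and not whether a gene was expressed, so the tissue could not be checked against its markers. Cortex is a mixture of neurons and glia, and a site bound in few cells cannot be told apart from a site bound weakly in many.

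Microglia are the resident macrophages of the brain. They clear debris, survey neighbouring cells with motile processes and take part in pruning synapses. The C1q chains form the recognition molecule that starts the classical complement cascade. Cx3cr1 is the receptor for fractalkine, Csf1r the receptor for the growth factors on which microglia survive, Trem2 a lipid-sensing receptor that signals through Tyrobp, and P2ry12 a receptor for extracellular ADP. Tmem119 is a surface protein used to tell microglia from other macrophages, and Aif1 encodes IBA1, the calcium-binding protein commonly stained to show microglia. CTCF is a zinc finger protein that binds a long asymmetric motif. It halts cohesin as cohesin extrudes chromatin loops, and loop anchors tend to carry motifs that point towards each other.

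Sequences with a CTCF motif match at summits near these genes are shown first, since the results below return to them. Each is read from mm10 on the strand of the motif, 5′ to 3′, with the 20-base match to the CTCF motif in capitals. The motif was learned from strong peaks elsewhere in the genome and had the consensus TGTGGCCACCAGGGGGCGCT.
C1qa, 548 bp upstream, chr4:136899335-136899364, plus strand: tgcccACAGGCCAGAAGAGGGCGACagatc
C1qc, 1057 bp upstream, chr4:136894112-136894141, plus strand: cctggCTCTTCCAGCAGGTGTCAGGctcgg
C1qb, 7399 bp downstream, chr4:136878776-136878805, plus strand: gctgaAGCGGACGCTAGAGGGCAGTcactt
Cx3cr1, 3493 bp upstream, chr9:120073345-120073374, minus strand: cacctCATTGCCTCAAGAGGGAGCTccaag
Cx3cr1, 11022 bp upstream, chr9:120080899-120080928, minus strand: ccctaAGAGGCCAGAAGAGGGCGCCagaca
Cx3cr1, 41879 bp downstream, chr9:120028005-120028034, plus strand: tcctcAGTTACCAGAAGGGGGCAGTatgtc
Trem2, 70647 bp downstream, chr17:48417038-48417067, plus strand: gtttgGCTGGCCACTGGGTGGCAGCatagg
P2ry12, 58591 bp upstream, chr3:59321452-59321481, plus strand: acacaGTTGACCACCAGGTGGCAGAcccta
P2ry12, 53761 bp downstream, chr3:59209089-59209118, minus strand: cagcaAATGGCCACTAGATGTCACCttttc
Tmem119, 11739 bp upstream, chr5:113812242-113812271, minus strand: ctcctCTACACCACTAGGTGTCACTaggtg
Tmem119, 26699 bp downstream, chr5:113773803-113773832, plus strand: cagccTTAAGGCACCAGGGGGCGCTcctgc
Aif1, 2617 bp upstream, chr17:35178677-35178706, plus strand: cttcaGGTCCCCAGCAGGGGGCAGCacgta
Aif1, 7077 bp downstream, chr17:35168966-35168995, plus strand: tgagaGTTTTACACTAGAGGGCGCTagtgc
Aif1, 9218 bp downstream, chr17:35166837-35166866, plus strand: tgagaGTTTTACACCAGAGGGCGCCattgc
Distances run from the 5′ end of the gene record to the peak summit, along the gene's direction. Shown are the nearest conservative summits on each side of each gene that had a match, and the Cx3cr1 summit at 3493 bp and Aif1 summit at 9218 bp. Other matched summits of the loci are left out. Summits without a motif match are not shown either. These include the nearest ones of Csf1r on both sides, the one 9335 bp upstream of Trem2 and the nearest one downstream of C1qa. The last 2 Aif1 sequences open with the same run of letters, and the last one lies beyond the nearest downstream summit.

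Binding was described in 4 lists that the authors had thresholded at an irreproducible discovery rate (IDR, the expected share of irreproducible peaks) of 0.05. The conservative list holds 44672 peaks supported by both pools and is used unless another is named. The optimal list, from the pooled reads, holds 50827, the pool I list 82131 and the pool J list 52658. The strength of a peak is given as the percentage of its own list with a lower signal value, because the unit of the signal is not stated. Such percentages are not comparable between lists of unequal length.

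Of the microglia genes, C1qa had CTCF at its promoter. It was the 1 member of 9 with a summit within 1000 bp of a transcription start site (TSS) in the conservative list, beside 20.8% of all protein-coding genes. The count was 1 of 9, again C1qa, in the optimal list (23.8% of all genes), in the pool I list (37.4%) and in the pool J list (25.2%). In the ranked list of both pools before thresholding, which takes in weak peaks, C1qa and Cx3cr1 had a promoter summit, beside 49.0% of all genes. The added Cx3cr1 summit lay 781 bp upstream of a TSS with a score of 68, where the threshold is 540. That TSS belongs to a transcript of support level 5, and the summit lay outside the window of the TSS of support level 1. Within the gene itself, 2 of 9 members held a conservative summit, Cx3cr1 and Csf1r, beside 45.8% of all genes. None of the 6 members shorter than 10 kb held a summit, beside 16.3% of all genes that short.

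The 5′ ends of all 9 members' gene records lie in sequence poor in CpG. Within 500 bp of the gene's 5′ end, the observed over expected CpG ratio ran from 0.158 at Aif1 and 0.161 at C1qc to 0.286 at C1qb and 0.342 at P2ry12, with a median of 0.211 for the members and 0.552 for all protein-coding genes (quartiles 0.218 and 0.768). All 9 lay below 0.5, as did 46.4% of all genes. Among all genes below 0.5, 9.92% had a promoter summit, and 30.2% of genes at or above 0.5 did. The share climbed with CpG content from 1.78% of genes in the lowest bin to 31.9% of genes with a ratio of 0.9 to 1.0, and was 26.8% and 16.7% in the next bins, of 366 and 36 genes. The count of 1 in 9 among the members is near the 9.92% of promoters of their CpG class. GC content did not set the members apart in the same way, with a median of 53.3% for the members and 54.7% for all genes. Among the members it ranged from 37.5% at P2ry12 to 58.4% at Tmem119. At Csf1r and Cx3cr1 the record's 5′ end lies more than 500 bp from the first TSS of support level 1, at chr18:61105572 and chr9:120068296. Their CpG and GC values do not describe the sequence at those TSS, and both medians of the members are the Cx3cr1 values.

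**Figure D1:**
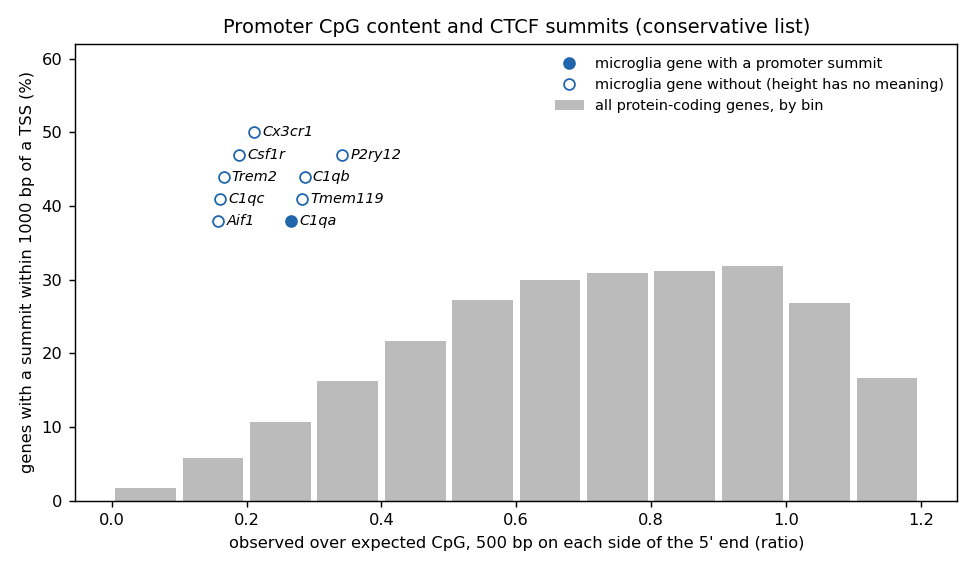
Grey bars give the percentage of protein-coding genes with a conservative CTCF summit within 1000 bp of a TSS, in bins of promoter CpG ratio with at least 20 genes. Circles mark the CpG ratio of each microglia gene on the horizontal axis, filled for C1qa, the member with a promoter summit, and all lie between 0.158 and 0.342.

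The complement genes C1qa, C1qc and C1qb stand in a row on the minus strand, and CTCF was bound between them. C1qa (chr4:136895917-136898803) had its summit 548 bp upstream of its TSS, at chr4:136899351. The peak was stronger than 31.4% of the conservative list, 39.8% of the optimal list and 62.9% of the pool I list, and the pool J summit, 541 bp upstream, was stronger than 37.1% of its list. Its signal value was 122 in pool I and 41.4 in pool J. C1qc (chr4:136889804-136893065) missed the promoter window narrowly. Its closest summit lay 1057 bp upstream at chr4:136894122, in the interval between the 3′ end of C1qa and the TSS of C1qc, and was stronger than 74.4% of the conservative list. The signal of that peak was 284 in pool I and 163 in pool J. It was thus the stronger peak of the pair in both pools, although the C1qa peak is the one inside a promoter window. The same interval carried a summit at chr4:136894329, without a motif match, that was stronger than only 0.311% of the list and had no counterpart summit in the pool J list. C1qb (chr4:136880129-136886187) had no close summit. Its nearest lay 7935 bp upstream, which is the same C1qc peak, and 7399 bp downstream, stronger than 50.3% of the list.

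The C1qa and C1qc peaks differed in their sequence. The 101 bases around each summit are given on the minus strand, in the direction of the genes, with the motif match in capitals where there was one.
C1qa promoter peak, chr4:136899301-136899401: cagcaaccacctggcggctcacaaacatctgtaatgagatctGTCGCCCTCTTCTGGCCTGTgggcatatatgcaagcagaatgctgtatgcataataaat
C1qc upstream peak, chr4:136894072-136894172: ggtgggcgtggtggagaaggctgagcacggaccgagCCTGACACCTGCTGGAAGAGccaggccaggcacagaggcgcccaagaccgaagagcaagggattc
C1qc upstream peak, weak summit, chr4:136894279-136894379: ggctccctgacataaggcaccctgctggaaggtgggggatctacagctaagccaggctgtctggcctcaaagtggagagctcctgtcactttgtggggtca
The C1qa summit falls on a repeat-masked base of the reference, and the C1qc summits do not. The C1qa match holds the 12 letters GCCAGAAGAGGG on its motif strand. Over all 31568 conservative summits with a motif match these letters were in 9.88% of matches, in 38.2% of those on a repeat-masked base (2852 of 7475) and in 1.11% of the rest (268 of 24093). In the 7 loci they were in 4 of 63 matches, all on repeat-masked bases: at C1qa, at Tmem119 13271 bp upstream, at Cx3cr1 11022 bp upstream, and in an intron of Scn11a beyond the far end of the Cx3cr1 record. Peaks with these letters were stronger than a median of 30.1% of the list, and the C1qa peak, at 31.4%, was close to that. The median was 28.1% for repeat-masked and 56.5% for unmasked summits, so low strength was not particular to these letters. As background, B2 elements, a family of short interspersed repeats in rodents, are known to carry CTCF motifs. The repeat family of these positions was not analysed here, and the letters were picked after the C1qa sequence had been seen.

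Around the C1q cluster the window of the genes and 100 kb on each side held 13 conservative summits, 15 in the optimal list, 17 in the pool I list and 15 in the pool J list. The strongest of the conservative ones lay 57509 bp downstream of the C1qa TSS towards Ephb2, an ephrin receptor gene, and was stronger than 91.2% of the list. The span between the nearest summits on each side was 5.02 kb for C1qa, with no other protein-coding TSS in it, and 15.3 kb for C1qb and C1qc, which share it and were alone in it. The C1qa span ends at the weak summit at chr4:136894329, which lies in the same peak interval as the stronger one at chr4:136894122. In the pool J list, without the weak summit, the C1qa span was 5.22 kb.

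**Figure D2:**
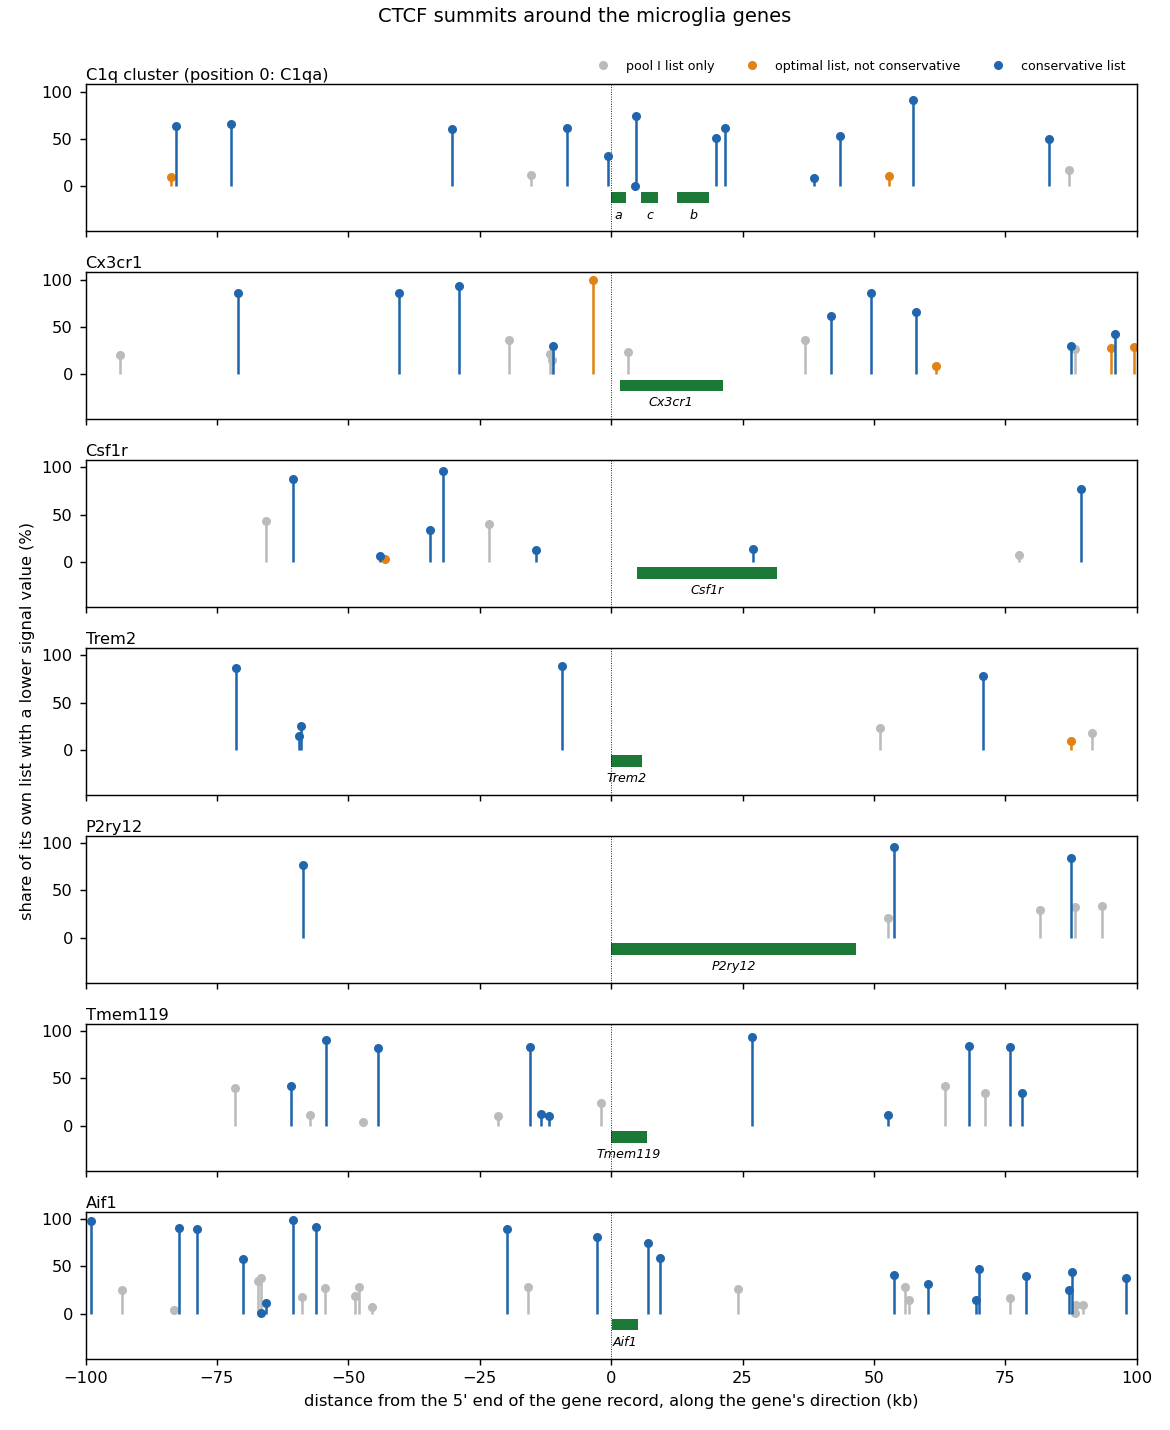
Each panel shows the CTCF summits within 100 kb of a microglia gene, with distance from the 5′ end of the gene record in kb on the horizontal axis and, on the vertical axis, the percentage of the peak's own list with a lower signal. Blue stems are conservative peaks, orange stems are in the optimal list but not the conservative one, grey stems are in the pool I list only, and green bars are the transcripts of support level 1. The orange stem beside Cx3cr1 reaches 99.7%, the P2ry12 panel holds few summits and the Aif1 panel many.

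Of the receptors, Cx3cr1 had the strongest peak near a TSS, and the lists disagreed on it. A summit at chr9:120073372, 3493 bp upstream of the gene record, had a signal of 403 in pool I and 274 in pool J, which placed it above 99.8% of the pool I list and 99.0% of the pool J list. In the optimal list it ranked 138 of 50827 peaks, above 99.7%. It is absent from the conservative list because its score in the ranked list of both pools was 478, below 540, although its signal there was above 99.8% of peaks. The conservative list therefore gave its nearest upstream summit 11022 bp away, at chr9:120080901, which was stronger than 29.8% of the list. Pool I alone had a summit in an intron at chr9:120066625, stronger than 23.5% of its list, and that summit was not in the other 3 lists. The call of a summit within Cx3cr1 rests on the annotation. The gene record (chr9:119901616-120069879, minus strand) includes a transcript of support level 5 that runs past Xirp1, Csrnp1, Ttc21a, Gorasp1 and Wdr48. The transcript of support level 1 spans 19614 bp (chr9:120048683-120068296) and held no conservative summit, which leaves Csf1r as the 1 member with a summit in such a transcript.

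Csf1r lies on the plus strand of chromosome 18, from 61100598 to 61132149. Its closest conservative summits were weak. One lay 14288 bp upstream of the gene record, or 19262 bp upstream of the first basic TSS, and was stronger than 12.1% of the list. The other lay in an intron of Csf1r, 27037 bp into the record, and was stronger than 13.2%. Neither had a motif match. The pool J list held the intronic summit but not the upstream one, and there the nearest upstream summit was the peak 32015 bp away in an intron of Pdgfrb, a receptor gene of the same kinase family, above 96.2% of that list. In the conservative list this Pdgfrb peak was above 96.4%, and was the strongest of the 9 summits in the Csf1r window.

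Trem2 (chr17:48346401-48354147, plus strand) had a strong peak upstream and none downstream for a long way. The upstream summit at chr17:48337066, 9335 bp from the TSS, was stronger than 88.8% of the conservative list, 90.2% of the optimal list, 94.7% of the pool I list and 88.5% of the pool J list. Its best motif score was 9.97, below the threshold of 10.93, so it counts as without a match. The nearest downstream summit lay 70647 bp away, and the span of 80.0 kb between them also held the TSS of Treml1, a receptor gene of the same family, of Nfya, a subunit of a CCAAT-binding factor, and of Oard1, a hydrolase of ADP-ribose derivatives. The pool I list placed a weak summit inside that span, 51078 bp downstream in an intron of Nfya, stronger than 22.6% of its list.

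P2ry12 (chr3:59216272-59262871, minus strand) had the widest span of the members without a summit. The nearest conservative summit upstream lay 58591 bp away in an intron of Igsf10, an immunoglobulin superfamily gene, and was stronger than 77.5% of the list. The nearest downstream lay 53761 bp away in the 3′ UTR of P2ry13, a related nucleotide receptor gene, and was stronger than 96.5%. The span of 112 kb between them held the TSS of P2ry12 and P2ry13, and 71.6% of all genes had a shorter span. The optimal and pool J lists gave these summits at the same positions. The pool I list added a weak one at the promoter of P2ry13, 52738 bp downstream and stronger than 20.3% of its list. P2ry12 has basic transcripts that begin further inside the record, and from the innermost TSS the P2ry13 summit was 11149 bp away.

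Tmem119 (chr5:113793729-113800516, minus strand) had its nearest conservative summits 11739 bp upstream and 26699 bp downstream. The upstream peak was weak, above 10.2% of the list, and the downstream peak, in an intron of Iscu, which encodes an iron-sulfur cluster scaffold, was above 93.4%. Further upstream, 15442 bp from the TSS, a summit was stronger than 83.2% of the list. Pool I alone had a summit close to the promoter, 1975 bp upstream and stronger than 24.4% of its list.

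Aif1 (chr17:35170991-35176068, minus strand) was closely flanked on both sides. The upstream summit at chr17:35178685 lay 2617 bp from the record end and 2684 bp from the first basic TSS, and was stronger than 80.9% of the conservative, 83.3% of the optimal, 88.8% of the pool I and 83.1% of the pool J list. The downstream summit at chr17:35168991, towards Prrc2a, was stronger than 75.0%, 78.1%, 84.9% and 80.6% of those lists. The span between them was 9.69 kb and held no other protein-coding TSS. Only 8.7% of all genes had a shorter one. Aif1 lies in the major histocompatibility region, and its window was the most densely bound of the 7 loci, with 20 conservative summits. The strongest, on the upstream side at the promoter of Atp6v1g2, a proton pump subunit gene, was above 99.3% of the conservative list and was in both pool lists, but not in the optimal list, where its score before thresholding was 249.

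The distances to the nearest summits were then set beside those of all genes. The members' median upstream distance was 9.34 kb and that of 21697 protein-coding genes with a summit on both sides was 21.3 kb (quartiles 5.67 and 62.6 kb). Downstream, the medians were 26.7 kb for the members and 24.1 kb for all genes (quartiles 7.84 and 65.2 kb). From the 5′ end of transcripts of support level 1, the members' downstream median was 22.1 kb. That is below the 24.1 kb of all genes, which was measured from gene records, and no value of all genes from such transcripts is given. On the nearer side the medians were 9.34 kb for the members and 9.63 kb for all genes. The medians of the span were 38.4 kb for the members and 54.9 kb for all genes (quartiles 24.8 and 132 kb). Upstream, C1qa, C1qc and Aif1 were nearer to a summit than the lower quartile of all genes, and the other members lay between the quartiles. Downstream, C1qa, Aif1 and C1qb were nearer than the lower quartile, Trem2 at 70.6 kb was beyond the upper one, and the rest lay between. The C1q genes share summits, so the 9 members are not 9 separate observations.

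**Figure D3:**
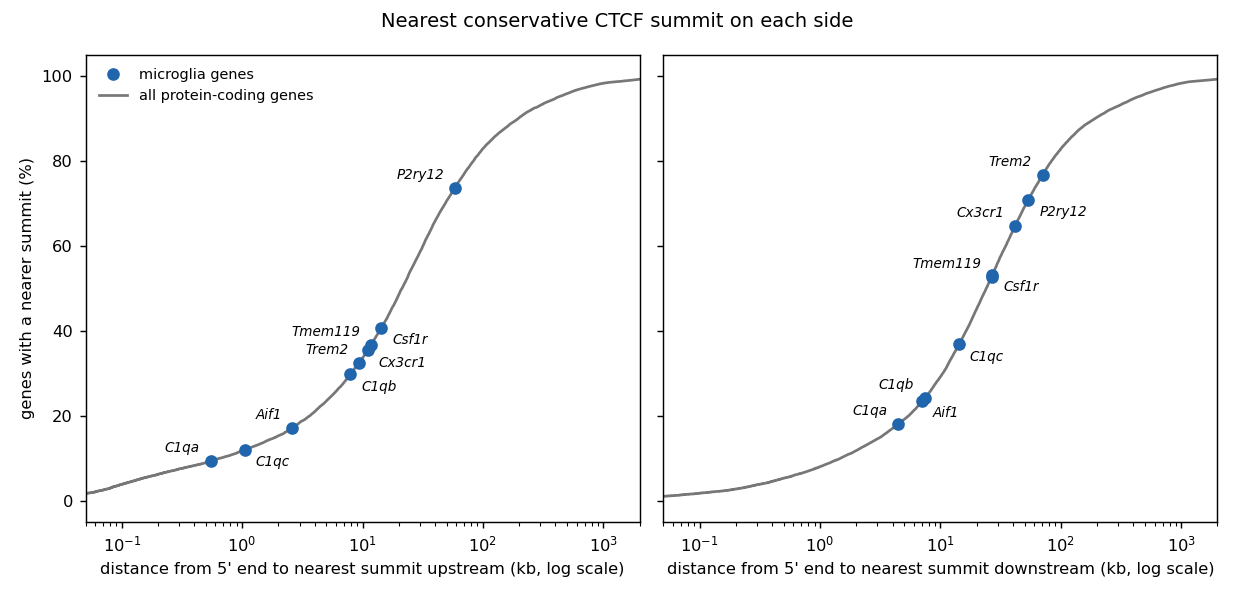
The grey curve gives, for all protein-coding genes, the percentage of genes with a nearer conservative summit at each distance in kb on a log scale, upstream on the left and downstream on the right. Blue points place the microglia genes on the curve: upstream they run from C1qa at 0.548 kb to P2ry12 at 58.6 kb, and downstream from C1qa at 4.47 kb to Trem2 at 70.6 kb.

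The number of summits in the gene and 100 kb on each side varied widely among the members. P2ry12 had 4 and Trem2 5, Csf1r 9, Tmem119 11, each C1q gene 13, Cx3cr1 15 and Aif1 20. The median was 13 for the members and 7 for all protein-coding genes, with quartiles of 4 and 11 for all genes. Aif1 had more than 97.8% of all genes did, and P2ry12 had more than 24.0%. The Cx3cr1 window is longer than the others because of the long gene record, so its count covers more sequence. The other lists gave medians of 15 for the members and 8 for all genes (optimal), 17 and 13 (pool I), and 15 and 8 (pool J). In all 4 lists the members' median is the count of the C1q window, which enters once for each C1q gene. With each of the 7 loci taken once, the middle conservative count was 11, that of Tmem119, which equals the upper quartile of all genes.

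A motif match within 50 bp of the summit was found at 63 of the 77 conservative summits in the 7 loci, or 81.8%, beside 70.8% of 20951 conservative summits and 0.885% of flanking windows. Those 20951 summits lie outside the odd-numbered autosomes from which the motif was learned, or in the 7 loci. The loci's summits were stronger than a median of 61.1% of the list, and the part of strength in the motif share was not tested. By position, 31 of the 77 were intergenic, 26 intronic and 14 at promoters, of which the 1 at a member's promoter was that of C1qa. Of the 16 different summits that flank the members, 12 had a match.

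The direction of those motifs differed between the genes. Cx3cr1 and Tmem119 lay between convergent motifs, which point towards each other across the gene, beside 14.6% of all protein-coding genes. At Cx3cr1 the motif of the strong peak 3493 bp upstream was on the same minus strand as that of the conservative one 11022 bp upstream, so the facing was convergent with either. At Tmem119 the facing was convergent in the optimal and pool J lists as well, but in the pool I list the weak summit 1975 bp upstream had a match on the plus strand, which put the gene between motifs on the same strand. P2ry12 lay between divergent motifs, C1qb, C1qc and Aif1 between motifs on the same strand, and C1qa, Csf1r and Trem2 had at least 1 flanking summit without a match. Between lists, P2ry12 lost its facing in the pool I list, where the nearest downstream summit had no match, and C1qa lay between motifs on the same strand in the pool J list. Among all genes, 11.6% were flanked by divergent motifs, 23.9% by motifs on the same strand, and 49.9% had a summit without a match on at least 1 side.

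Signal in the pools was compared at the conservative peaks, which were selected for agreement between the pools. At 75 of the 77 conservative peaks, those with a summit of both pools within 100 bp, the median log2 ratio of pool I over pool J signal was 0.98 ± 0.36 (SD over peaks), ranging from 0.22 to 2.04. Over all 44335 such conservative peaks it was 1.09 ± 0.35. None of the 75 peaks departed from the overall median by more than 2-fold, beside 131 peaks, or 0.295%, genome-wide. The ratio at the C1qa promoter peak was 1.56 and at the C1qc peak 0.80. Of the other 2 peaks, the weak C1qc summit had no pool J summit within 100 bp. A weak peak at Ddx39b in the Aif1 window had no pool I summit within 100 bp, although a pool I peak overlapped it.

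**Figure D4:**
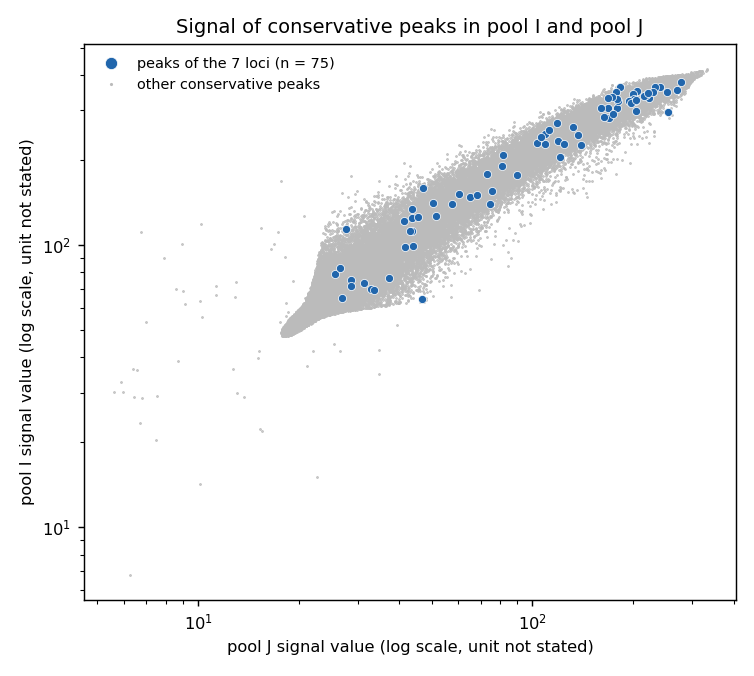
Signal of each conservative peak in pool I on the vertical axis and in pool J on the horizontal axis, both log scales in the authors' unstated unit, for the 75 peaks of the 7 loci in blue and the other conservative peaks in grey. The blue points lie within the grey band along its length, and the band flattens at high signal.

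Pool I gave 134 peaks in the 7 loci and pool J 90. Of the pool I peaks, 90, or 67.2%, overlapped a pool J peak by at least 1 bp, beside 63.1% of all pool I peaks. The 44 without an overlap were stronger than a median of 24.8% of the pool I list, and the 90 with one were stronger than a median of 74.0%. Only 1 of the 44 was stronger than the median peak of the pool I list. The promoter-near summit of Tmem119 and the intronic one of Cx3cr1 in pool I belong to these unshared weak peaks.

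Other genes of the same pathways were counted in lists chosen by name. Of the 46 genes, 8 had a conservative promoter summit and 24 a summit in the gene, beside the 20.8% and 45.8% of all protein-coding genes. Of 9 complement partners, 3 had a promoter summit: C1ra and C1s1, which encode the proteases that C1q activates, and Cd55, which restrains the cascade. Their summits lay 165, 166 and 210 bp from a TSS and were stronger than 80.9%, 63.4% and 68.2% of the list. C2 and C3, components further along the cascade, had none, but the closest summit of C2 lay at 1152 bp and the pool J list placed one at its promoter. By the 1000 bp rule C1qa and both of these proteases had a promoter summit, and C1qb and C1qc did not. This division depends on the window, since the C1qc summit lay at 1057 bp and was stronger than that of C1qa.

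None of the 9 genes of the TREM family and its signalling had a promoter summit, and 4 had a summit in the gene. Inpp5d, a phosphatase, and Plcg2, a phospholipase, were among the 4. Of the 5 ligand genes, Tgfb1 had a promoter summit above 64.5% of the list and Apoe, a lipid carrier that binds Trem2, one above 5.97%. Csf1 and Cx3cl1, the ligands of Csf1r and Cx3cr1, had none in the conservative list. Csf1 had one in the optimal and pool I lists. Of 10 other homeostatic microglia genes, Olfml3 was the 1 with a promoter summit, above 85.9%, and Fcrls and Gpr34 had none. Among the myeloid transcription factors, Cebpa had a promoter summit above 76.8% of the list, and Irf5 and Irf8 had none, although Irf8 had one in the pool I list. Of 6 genes of perivascular macrophages and monocytes, none had a promoter summit, Ccr2 and Cd163 among them.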

How the data were processed

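CTCF ChIP-seq peak lists of pool I, pool J and both pools were used as deposited, on mm10 per the file headers and notes. The authors thresholded or ranked them by IDR. The deposited score is a scaled IDR of at most 1000. The deposited signal value is in a unit that is not stated. Per the deposited notes, 1 alignment file holds both libraries of each pool. The aligner and peak caller were not given in the sources used here. Reads of the hybrid were placed on mm10, so binding per allele was not analysed here. The 4 thresholded lists gave the results, and the ranked lists gave peaks below threshold and signal per pool.

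The members and all lists were chosen with earlier results of these data known. Genes and transcripts came from the GENCODE M21 basic annotation, with GRCm38.p6 as sequence. A promoter was 1000 bp on each side of any basic TSS. The motif was a weight matrix learned on odd-numbered autosomes from the 1000 conservative peaks of highest signal, leaving out the members' loci with 200 kb on each side. It was searched on both strands within 50 bp of a summit, with the score that 1% of flanking windows there passed. The search for place and strand was tested with a made-up motif planted in simulated sequence. The learned motif and its threshold were not tested that way. Named were all members, genes with a TSS in a member's span, the gene nearest each flanking summit, and from each other list up to 3 genes with the strongest promoter summit and the alphabetically first 2 without. Other genes and peaks named were chosen after their values were seen. A result for a listed gene is not reported here. No test was run, as each list gives 1 value per peak. Python 3.11.15, numpy 2.4.6, pandas 2.3.3, pysam 0.24.0 and matplotlib 3.10.9 were used.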

Additional observations from a re-analysis of the deposited data

How the results depend on the processing

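No paired analysis was possible because every list merges both libraries of a pool, and the results come from no test. No library could be left out for the same reason. The count of members with a promoter summit was 1 in the optimal, pool I and pool J lists, at an IDR of at most 0.01, and with the gene record's 5′ end alone. It was 0 with a window of 500 bp, 2 with 2000 bp, 3 with 5000 bp, 2 when overlap of the peak interval decided and 2 in the ranked list of both pools. No share of all genes is given for the other windows or the interval overlap. Those counts show how the setting matters and cannot be read as a trait of the members. Members with a summit in the gene numbered 1 with transcripts of support level 1, an alternative chosen after seeing the data. The pool I list, which holds more peaks, moved the median distances to 3.49 kb upstream and 14.3 kb downstream. Their place among all genes moved less. At the upstream median, 32.4% of all genes were nearer to a summit in the conservative list and 31.7% in the pool I list. At the downstream median, 52.7% were nearer in the conservative list and 55.5% in the pool I list. Flanking summits with a motif match numbered 3, and members between convergent motifs 1, at the threshold that 0.1% of flanking windows pass, where 16.4% of conservative summits have a match. The share of all genes between convergent motifs at that threshold is not given. The cause of these shifts was not tested. Of the 18 single distances, 1 moved in the optimal list, 5 in the pool I list, 3 in the pool J list, 6 with only conservative peaks above the median signal and 0 at the stricter IDR. With an overlap of at least 50% of both intervals, 76 pool I peaks of the loci were shared, or 56.7%, beside 52.0% of all pool I peaks. The unknown depth limits what a missing peak can show.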
